A study of Mus musculus with 16 samples.

Results

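Lung endothelial cells taken after removal of a primary tumour (d22) were compared with the same cell population taken while the primary tumour was in place (d15). The comparison rests on 8 of the 16 libraries of the series, 4 at d22 (replicates 1, 4, 5 and 6) and 4 at d15 (replicates 3, 4, 5 and 6), chosen by their time point label and not by any measured value. The 4 libraries of mice without a tumour (d0) are given beside them as a reference level. In every sentence that lists single libraries, the values follow this order of replicates.

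All mice were female C57BL/6N. Those of d15 and d22 had received an implant of Lewis lung carcinoma cells, a transplantable tumour line from a C57BL mouse, under the skin, and those of d22 had then undergone resection of the tumour. The d0 mice are labelled wild-type and carry no other treatment in the labels. The labels name no d22 group with the tumour still in place and no sham-operated group, so removal of the tumour, the surgery and the 7 days between the time points cannot be told apart. The antibodies and gate of the cell sort and the hour of collection are not given in the sources used here.

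Endothelial cells line all blood and lymph vessels, and those of the lung meet every factor that a distant tumour releases into venous blood. Cytokines of the interleukin-6 family act on them through gp130 and the transcription factor STAT3, which switches on LRG1, SOCS3 and other acute-phase genes. Endothelial cells also run a circadian clock. In its core loop BMAL1 (gene Arntl) and CLOCK drive the Per, Cry, Nr1d1, Nr1d2 and Dbp genes, and the products of Nr1d1 and Nr1d2 repress Arntl.

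The sorted cells carried the endothelial markers of their label. Pecam1, the junction protein CD31, stood at 615 to 827 RPKM (reads per kilobase of transcript per megaread) at d15 and at 589 to 805 at d22, and Cdh5, the VE-cadherin gene, at 311 to 380 and 277 to 385. All 20 pan-endothelial genes were tested, and their summed level was 9449 to 10915 RPKM at d15 and 10163 to 12032 at d22. Ramp2 weighs heavily in this sum, with a mean of 2416 RPKM at d15 and 3958 at d22. By gene, 15 differences were negative and 5 positive, with a median of -0.10, and 3 were lower and 1 higher at an unadjusted limma p under 0.05. Of 14 pan-leukocyte genes 11 are in the table, with a sum of 63.1 to 77.1 RPKM at d15 and 55.2 to 68.6 at d22, most of it from Lcp1 and Arhgdib. Approximate depth was 93.4 to 125.8 M (mega) reads per library at d15 and 105.7 to 110.3 at d22, and an RPKM of 1 at the lowest depth corresponds to about 93.4 reads per kilobase. Libraries correlated at r = 0.979 to 0.985 within d15, 0.978 to 0.99 within d22 and 0.96 to 0.985 between them, across genes, which are not independent replicates.

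After resection 764 of 13761 tested entries were higher and 375 were lower than with the tumour in place, by limma on log2(RPKM + 1) with Benjamini-Hochberg adjusted p under 0.05. An entry that passed this threshold is called changed below. The called entries are 8.28% of those tested, 5.55% higher and 2.73% lower. Of the rises 39, and of the falls 2, were in entries that entered the test only through the group where they are high, as all libraries of the other groups were under 1 RPKM. Changes were small for most of them: 13 rises and 38 falls reached 2-fold, and the median difference of all tested entries was 0.03. With each library centred on its median, 458 entries were higher and 572 lower, so the split between the directions depends on the scaling, and higher calls go from 67.1% to 44.5% of all calls. The 4 libraries of d15 and the 4 of d22 did not overlap, with d22 above, for 10.1% of the tested entries and, with d22 below, for 4.86%. Bulk values cannot tell fewer cells of a type from less RNA per cell.

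**Figure D1:**
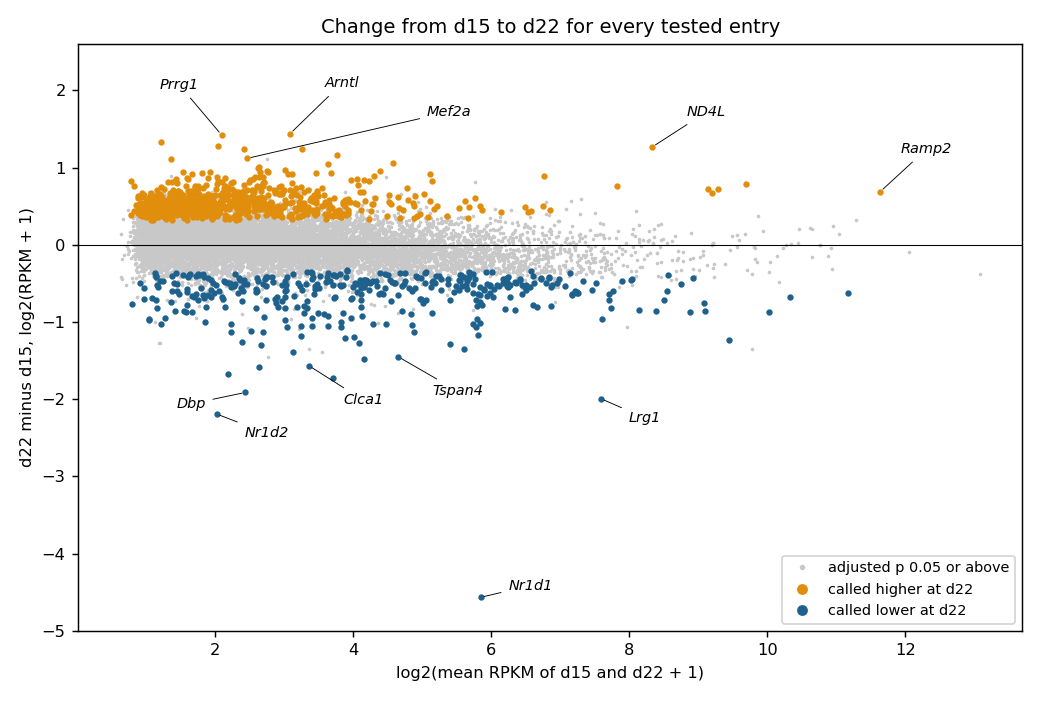
Difference between d22 and d15 on the log2(RPKM + 1) scale (vertical axis) against the mean level of both groups (horizontal axis, log2) for the 13761 tested entries; orange and blue points are the 764 entries called higher and the 375 called lower. Nr1d1 lies far below all others at -4.57, and Arntl and Prrg1 are the highest of the labelled genes.

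The circadian clock held the largest fall and the largest rise among the genes named by rule. Of 14 tested clock genes, 7 fell and 2 rose, against 2.73% and 5.55% of all tested entries, and the list's median difference was -0.42. The falls covered the repressor genes Nr1d1 and Nr1d2, the output factor Dbp, all 3 Per genes and Bhlhe40. Of these, Per3 entered the test only through its d15 libraries. Per2 entered through d15 libraries and a single d0 library at 1.22 RPKM, with all d22 libraries under 1 RPKM. The rises included Arntl. The count of falls was 4 without d15 replicate 4, 5 or 6, fits in which Per2 and Per3 no longer met the filter and were not tested. Per1, Per2, Per3 and Thra are named after their values were seen.

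Nr1d1, which encodes REV-ERB alpha, stood at 62.7, 169, 120 and 86.7 RPKM at d15 and at 3.36, 3.79, 2.57 and 3.89 at d22. Every d0 library, at 13.6 to 53.8 RPKM, lay below all d15 and above all d22 libraries. The difference was -4.57 ± 0.35 (log2, standard error; adjusted p = 1.14e-05). Nr1d1 lies on the minus strand of chromosome 11 (mm10, 98767932 to 98775333), and its end overlaps Thra, the thyroid hormone receptor alpha gene, on the other strand. Thra also fell, from 28.6 to 13.7 RPKM in the mean (-1.03 ± 0.18, adjusted p = 0.00387). Whether the authors' counting used strand is not given, so reads of the shared stretch cannot be assigned to one of them.

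Nr1d2, which encodes the related repressor REV-ERB beta, was at 2.45, 5.06, 8.43 and 6.99 RPKM at d15 and at 0.379, 0.406, 0.249 and 0.491 at d22. Dbp, a transcription factor that carries clock output to target genes, was at 3.53, 12.4, 7.58 and 7.22 and then at 1.56, 1.08, 0.992 and 1.00. Neither gene had overlapping groups, and the differences were -2.19 ± 0.25 and -1.91 ± 0.25 (adjusted p = 0.000274 and 0.00087). At d0 Nr1d2 was at 0.903 to 2.62 RPKM, above all d22 libraries, while Dbp at 0.982 to 2.24 overlapped d22.

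Per3 was at 1.00 to 2.28 RPKM at d15 and at 0.236 to 0.569 at d22, with no overlap (-0.96 ± 0.14). Its d0 libraries were at 0.243 to 0.57 RPKM, so only d15 reached the 1 RPKM that the filter asks of 4 libraries, and its call is no independent support for the list. Per1 and Per2, the other negative limb genes of the loop, had overlapping groups. Per1 was at 5.44 to 11.5 and 3.56 to 5.91 RPKM (-0.73 ± 0.21, adjusted p = 0.0431) and kept its call in 2 of the 8 fits that left out 1 library. Per2 was at 0.752 to 3.28 and 0.282 to 0.905 RPKM (-1.03 ± 0.26, adjusted p = 0.0269) and kept its call in 2 of the 5 such fits that tested it.

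Bhlhe40, a repressor that joins the clock with stress responses, was at 41.7, 37.0, 98.1 and 62.9 RPKM at d15 and at 23.4, 31.2, 20.7 and 15.8 at d22 (-1.29 ± 0.26, adjusted p = 0.0101). It differs from the other falling clock genes in its level at d0, 7.25 to 12.9 RPKM, which was below every d22 library. The difference of d22 from d0 was 1.22 (adjusted p = 0.00525).

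Arntl moved the other way, from 6.40, 1.97, 2.95 and 3.69 RPKM at d15 to 9.60, 12.2, 10.5 and 12.7 at d22. The groups did not overlap, and the difference was 1.44 ± 0.21 (adjusted p = 0.00169). Clock, the partner of Arntl, was at 1.54 RPKM in the mean at d15 and 1.96 at d22 (0.23, adjusted p = 0.194), and Cry1 at 1.03 and 1.13 (0.07, adjusted p = 0.742), so neither passed.

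Within d15 the clock genes also spread together across libraries: replicate 3 had the lowest Nr1d1, Nr1d2, Dbp, Per1, Per2 and Per3 and the highest Arntl. The d22 libraries were closer to each other, with Nr1d1 between 2.57 and 3.89 RPKM. The part of the hour of collection in these differences was not tested.

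**Figure D2:**
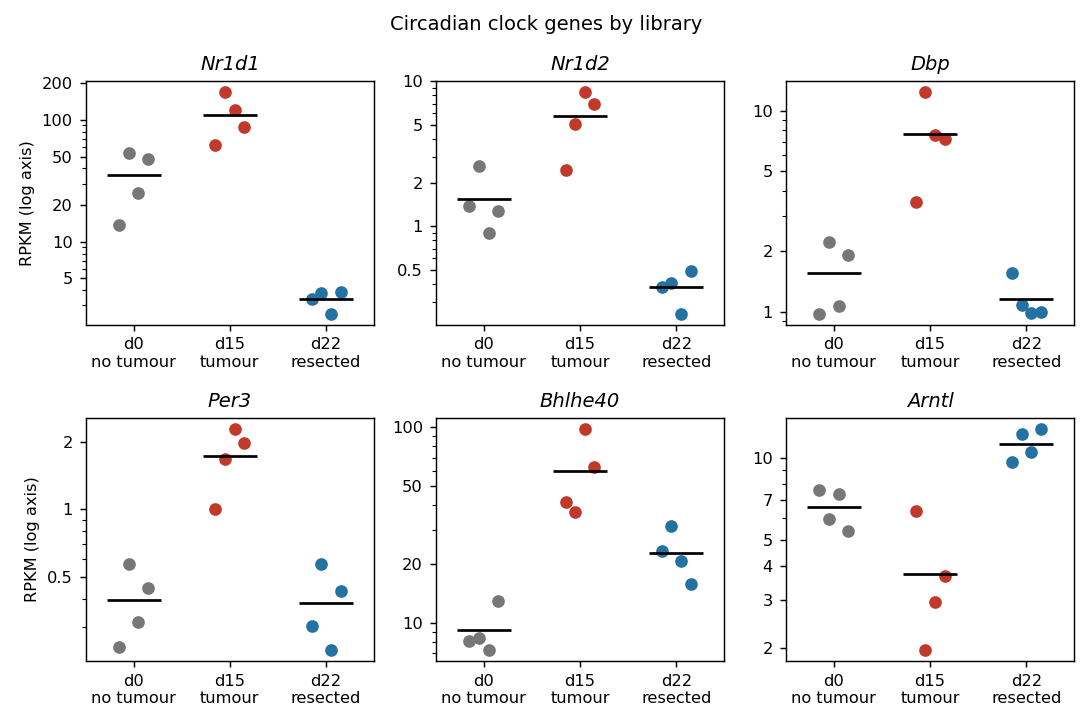
RPKM (log axis) of 6 clock genes in the 4 libraries of d0 (grey), d15 (red) and d22 (blue); points are libraries and black lines are means. Nr1d1, Nr1d2, Dbp, Per3 and Bhlhe40 sit lower at d22 than at d15 in every library, and Arntl sits higher.

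The promoters of Nr1d1 and Arntl, which hold the largest fall and the largest rise, and of Per1 and Nr1d2, which hold matches, are shown to set the measured changes beside the known control sequences of the loop. RefSeq (GRCm38.p6, the assembly of mm10) gave a promoter for 6 of the 9 called clock genes, and the 250 bases before the annotated start were searched on both strands. The letters were CACGTG, the E-box bound by BMAL1 and CLOCK, and AGGTCA, the core letters bound by REV-ERB and ROR proteins. An E-box was found in Per1 alone and AGGTCA in Per1 and Nr1d2, where a gene counted if any of its promoters matched. Of all 32851 promoters, 6.02% and 14% hold them in a window of this length, a share per promoter and not per gene. In Per1 (chr11:69098699-69098948, plus strand) the E-box begins 166 bases before the start and AGGTCA, here on the other strand, 137 bases before it, both in capitals. Another annotated Per1 promoter (chr11:69099902-69100151, plus strand), not shown, holds neither. In Nr1d2 (chr14:18239107-18239356, minus strand) AGGTCA begins 77 bases before the start. Nr1d1 (chr11:98775378-98775627, minus strand) and Arntl (chr7:113207215-113207464, plus strand) hold neither in this window. Another annotated Arntl promoter (chr7:113207261-113207510, plus strand), not shown, holds neither of them. A match is a run of letters and not a shown binding site, and regulatory sites outside these windows were not searched. Only these exact letters were searched, so the search cannot decide whether a promoter holds an element that is spelled otherwise.
Per1: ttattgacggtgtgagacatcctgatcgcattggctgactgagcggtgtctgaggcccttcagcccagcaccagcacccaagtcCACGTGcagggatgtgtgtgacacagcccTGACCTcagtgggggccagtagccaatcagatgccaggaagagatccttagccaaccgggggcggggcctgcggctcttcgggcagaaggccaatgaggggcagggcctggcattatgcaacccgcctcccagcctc
Nr1d2: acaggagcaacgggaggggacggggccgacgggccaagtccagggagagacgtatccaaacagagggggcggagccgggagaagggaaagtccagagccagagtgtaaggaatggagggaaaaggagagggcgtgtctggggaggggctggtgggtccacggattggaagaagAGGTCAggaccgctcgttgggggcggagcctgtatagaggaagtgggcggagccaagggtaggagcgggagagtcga
Nr1d1: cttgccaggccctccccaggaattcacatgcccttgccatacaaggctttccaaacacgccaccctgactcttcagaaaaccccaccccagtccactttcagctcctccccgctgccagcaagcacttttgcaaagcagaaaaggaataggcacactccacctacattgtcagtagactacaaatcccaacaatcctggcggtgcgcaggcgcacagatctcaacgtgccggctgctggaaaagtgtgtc
Arntl: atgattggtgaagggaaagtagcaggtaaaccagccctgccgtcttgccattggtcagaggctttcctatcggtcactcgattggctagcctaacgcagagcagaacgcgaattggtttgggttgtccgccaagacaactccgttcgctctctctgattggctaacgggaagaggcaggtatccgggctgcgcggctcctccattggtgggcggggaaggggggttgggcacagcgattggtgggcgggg

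STAT3 targets and acute-phase genes respond to interleukin-6 family signalling. The list used for them also holds Stat3 itself and cytokine receptor genes, Il4ra, Il6st and Osmr among them, which enter its counts. Of 20 tested members 5 fell and 0 rose, against 2.73% and 5.55% of all tested entries. At an unadjusted p under 0.05, 12 members were lower and 0 higher, and 19 of the 20 differences were negative with a median of -0.50. The count of falls was 3 without d15 replicate 5 or 6 or d22 replicate 5 or 6, and 8 without d15 replicate 3.

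Lrg1 encodes leucine-rich alpha-2-glycoprotein, a secreted acute-phase protein that modifies TGF-beta signalling in endothelium. It was at 271, 179, 418 and 363 RPKM at d15 and at 67.2, 112, 57.6 and 64.8 at d22. The groups did not overlap (-1.99 ± 0.25, adjusted p = 0.000724), and the call held in all 8 fits that left out 1 library. The d0 libraries were at 29.4 to 52.0 RPKM, below every d22 library, and d22 differed from d0 by 0.95 (adjusted p = 0.0145). The gene lies on the minus strand of chromosome 17 (mm10, 56119678 to 56122001).

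Pim3, a kinase gene induced by STAT3, was at 13.8, 16, 24.4 and 18.4 RPKM at d15 and at 8.66, 8.68, 6.01 and 8.79 at d22 (-1.07 ± 0.17, adjusted p = 0.00257). Il4ra, the alpha chain of the receptors for interleukin-4 and interleukin-13, was at 146, 149, 164 and 129 RPKM and then at 90.8, 83.8, 105 and 61.8 (-0.80 ± 0.17, adjusted p = 0.0113). Both had d22 libraries within or close to the d0 range, which was 7.06 to 11.3 RPKM for Pim3 and 65.4 to 108 for Il4ra.

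Socs3, the feedback inhibitor of gp130 signalling, was at 11.8, 8.50, 22.5 and 16 RPKM at d15 and at 6.92, 9.69, 4.95 and 7.05 at d22, so the groups overlapped (-0.90 ± 0.25, adjusted p = 0.0364). Ch25h, which makes the oxysterol 25-hydroxycholesterol, was at 21.4 to 45.7 and 9.64 to 25.9 RPKM (-1.03 ± 0.26, adjusted p = 0.0265). Each kept its call in 3 of 8 fits that left out 1 library.

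The receptors of the pathway did not pass. Il6ra, which the list also holds, was under 0.5 RPKM in all 8 libraries of d15 and d22. Il6st, the gp130 gene, was at 15.2 to 25 RPKM at d15 and 11.8 to 13.9 at d22 (-0.49 ± 0.15, adjusted p = 0.0614), and Osmr, the oncostatin M receptor gene, at 11.9 to 22.6 and 10.3 to 12.6 (-0.52, adjusted p = 0.0983). Stat3 itself was at 4.38 and 3.71 RPKM in the mean (-0.19, adjusted p = 0.286). Of the kinases that these receptors use, Tyk2 rose from 2.73 to 3.57 RPKM at d15 to 4.39 to 5.99 at d22 (0.54 ± 0.11, adjusted p = 0.011). Jak2 was at 0.483 to 1.10 and 1.03 to 1.62 RPKM (0.41 ± 0.12, adjusted p = 0.0469), with overlap and a call in 2 of 8 fits that left out 1 library.

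**Figure D3:**
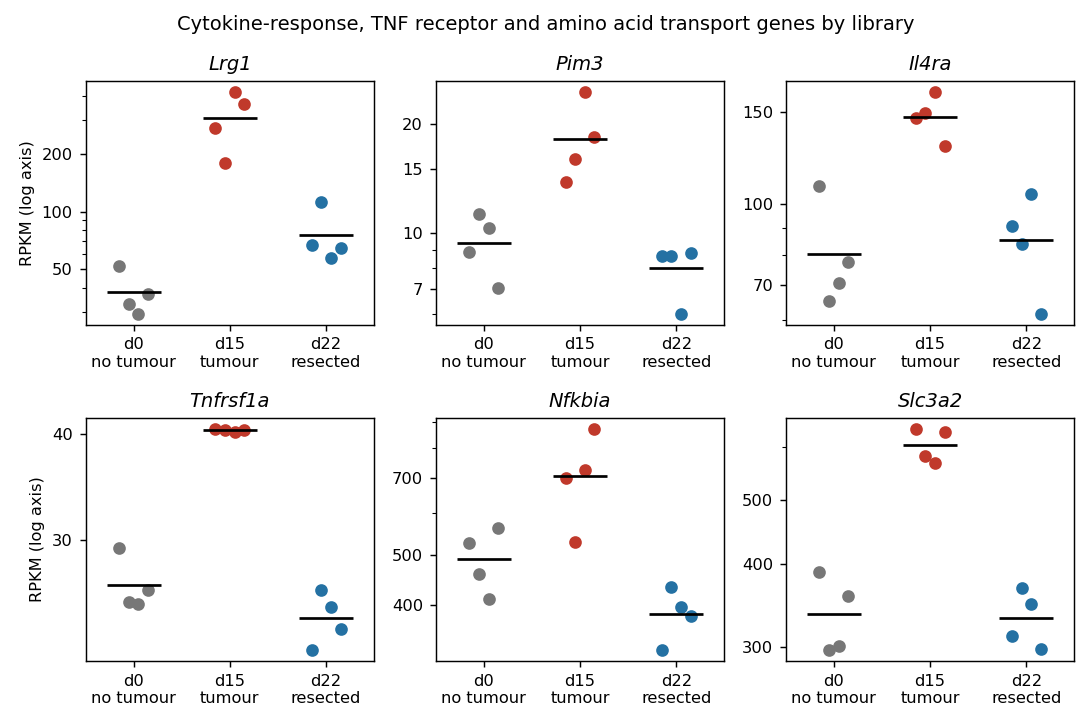
RPKM (log axis) of Lrg1, Pim3, Il4ra, Tnfrsf1a, Nfkbia and Slc3a2 in the 4 libraries of d0 (grey), d15 (red) and d22 (blue); points are libraries and black lines are means. In all 6 genes every d22 library lies below every d15 library, and Tnfrsf1a shows the narrowest d15 group, 40.2 to 40.6 RPKM.

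The promoter of Socs3 is shown because it holds the only match among the 5 called genes of this list. The letters searched were TTCNNNGAA, the element bound by STAT factors, in the 250 bases before the RefSeq start on both strands. All 5 genes had a promoter, and 7.02% of the 32851 promoters hold a match. In Socs3 (chr11:117969367-117969616, minus strand) it begins 154 bases before the start, in capitals.
Socs3: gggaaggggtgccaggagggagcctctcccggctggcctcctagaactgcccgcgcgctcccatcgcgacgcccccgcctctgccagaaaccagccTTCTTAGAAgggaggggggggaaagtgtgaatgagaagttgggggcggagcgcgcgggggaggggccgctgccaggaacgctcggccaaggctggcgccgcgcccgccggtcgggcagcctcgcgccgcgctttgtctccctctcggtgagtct

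Genes that glucocorticoids induce had falls as well: of 18 tested members 7 fell and 0 rose, against 2.73% and 5.55% of all tested entries, with 10 lower and 1 higher at an unadjusted p under 0.05 and a median of -0.53. Of the 7 falls, Per1 is also in the clock list, Nfkbia in that of NF-kB and Ddit4 in that of amino acid transport and ATF4. Among other members of the list, Fkbp5 was under 0.5 RPKM in all 8 libraries of d15 and d22. Tsc22d3, Sgk1 and Klf9 were not called. Zbtb16, a zinc finger repressor gene that responds strongly to steroids, was at 23, 19.5, 28.4 and 19.6 RPKM at d15 and at 9.80, 9.46, 12.5 and 4.81 at d22 (-1.27 ± 0.20, adjusted p = 0.00257). Sult1a1, a sulfotransferase gene, was at 51.1 to 104 and 25.7 to 39.7 RPKM (-1.17 ± 0.24, adjusted p = 0.0101). In both genes the groups did not overlap.

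Errfi1, an inhibitor of the EGF receptor, fell from 3.96 to 5.31 RPKM at d15 to 2.58 to 3.30 at d22 (-0.49 ± 0.12, adjusted p = 0.019). Ddit4, an inhibitor of mTORC1, had overlapping groups at 8.05 to 17.6 and 2.42 to 8.09 RPKM (-1.05 ± 0.27, adjusted p = 0.0278). Cyp26b1, a retinoic acid-degrading enzyme gene, spread widely at 13.8, 13.5, 41.7 and 7.56 RPKM and then 7.59, 7.75, 1.19 and 3.03 (-1.72 ± 0.48, adjusted p = 0.0378), and it is named after its values were seen. Its d0 libraries, at 12.1 to 37.3 RPKM, overlapped those of d15. The count of falls in the list was 4 without d15 replicate 5, d22 replicate 1 or d22 replicate 6. With the length and GC trend described below removed it was 4, against 6 for the same genes uncorrected.

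Tumour necrosis factor acts on endothelium mainly through the receptor encoded by Tnfrsf1a. That gene was at 40.6, 40.4, 40.2 and 40.5 RPKM at d15 and at 22.2, 26.2, 25 and 23.6 at d22 (-0.72 ± 0.09, adjusted p = 0.000685), and d0 was at 25.2 to 29.4. Nfkbia, the inhibitor gene that NF-kB itself induces, was at 703, 530, 726 and 871 RPKM and then at 328, 434, 398 and 382 (-0.86 ± 0.15, adjusted p = 0.00494). These were the 2 falls among 14 tested NF-kB genes, of which 0 rose, beside 2.73% of all tested entries called lower.

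Adhesion molecules for leukocytes held no call. Of 12 tested members limma called 0, with 1 higher and 1 lower at an unadjusted p under 0.05. Vcam1 was at 10.8, 19.2, 18.7 and 19.0 RPKM at d15 and at 33.8, 32.0, 16.4 and 23.6 at d22 (0.59 ± 0.24, adjusted p = 0.126), against 4.52 to 9.38 at d0. Icam1 was at 28.7 to 56.3 and 28 to 33.6 RPKM (-0.30, adjusted p = 0.258), and Selp, the P-selectin gene, at 3.43 to 9.22 and 2.5 to 6.95 (-0.44, adjusted p = 0.314). Of 22 immediate-early genes, which also respond to tissue dissociation, 3 fell, beside 2.73% of all tested entries called lower. They were Atf3, from 23.6 to 51.2 RPKM to 13.3 to 21 (-0.86 ± 0.21, adjusted p = 0.0208), Zfp36 (-0.60, adjusted p = 0.0489, called in 2 of 8 fits that left out 1 library) and Socs3.

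Genes of amino acid transport and the ATF4 response had 4 falls and 0 rises among 9 tested, beside 2.73% of all tested entries called lower, with a median of -0.42. Slc3a2, the heavy chain shared by several amino acid transporters, was at 639, 581, 567 and 633 RPKM at d15 and at 312, 367, 348 and 297 at d22 (-0.87 ± 0.12, adjusted p = 0.00125). Its d22 libraries lay in the range of d0, 296 to 389 RPKM. Atf4 was at 79.7 to 90.6 and 53.5 to 71.9 RPKM (-0.43 ± 0.10, adjusted p = 0.0218), and its target Trib3 at 4.1 to 5.37 and 3.02 to 3.69 (-0.46 ± 0.11, adjusted p = 0.0232). The fourth was Ddit4. Without d15 replicate 6 or d22 replicate 1, 5 or 6 the count was 2, and with the length and GC trend removed it was 1, against 4 for the same genes uncorrected.

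Of 22 hypoxia and glycolysis genes, 5 fell and 1 rose, against 2.73% and 5.55% of all tested entries. Pfkfb3, which sets the rate of glycolysis in endothelium, was at 9.35, 29.3, 31.7 and 17.4 RPKM at d15 and at 9.22, 8.27, 10.2 and 5.42 at d22 (-1.20 ± 0.30, adjusted p = 0.026). Bnip3, a mitophagy receptor gene, was at 13.1 to 18.8 and 8.16 to 13.1 RPKM (-0.52 ± 0.14, adjusted p = 0.0334). Adm (-0.55, adjusted p = 0.0146), Aldoa (-0.43, adjusted p = 0.0468) and Ankrd37 (-0.89, adjusted p = 0.0431) were the other falls, the last 2 named after their values were seen. Aldoa kept its call in 1 and Ankrd37 in 2 of 8 fits that left out 1 library. Hif1a, the oxygen-regulated factor that controls many of these genes, rose from 2.68 to 3.48 RPKM to 3.88 to 5.52 (0.50 ± 0.13, adjusted p = 0.0331), a call kept in 3 of 8 such fits and lost after removal of the length and GC trend. The falls numbered 2 without d15 replicate 3, 4 or 6, 3 without d22 replicate 5, and 1 without d22 replicate 1 or 6. With the trend removed they numbered 2, against 3 for the same genes uncorrected.

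Vessel-type genes changed singly. Among 6 tested lymphatic-associated genes, 2 fell, beside 2.73% of all tested entries called lower. The entry listed as Clca1, a symbol that has since been reassigned among neighbouring chloride channel accessory genes, was at 13.3, 13, 21.5 and 9.83 RPKM at d15 and at 3.58, 5.62, 3.45 and 3.70 at d22 (-1.57 ± 0.19, adjusted p = 0.000417). Flt4, the VEGF receptor of lymphatic and some blood capillaries, was at 7.20 to 10.9 and 4.53 to 5.27 RPKM (-0.82 ± 0.14, adjusted p = 0.0047).

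The counts of the next lists stand beside 5.55% of all tested entries called higher and 2.73% called lower. The Notch ligand gene Dll4 was the single fall among 19 arterial and Notch genes, at 107 to 179 RPKM at d15 and 89.0 to 100 at d22 (-0.54 ± 0.13, adjusted p = 0.019). Of 13 general capillary genes Sema3c rose (0.89 ± 0.22, adjusted p = 0.026), with d15 replicate 3 at 126 RPKM inside the d22 range of 122 to 150, and Gpihbp1 fell. In the list of 14 aerocyte genes, those of the gas-exchange capillary cell, Clu fell (-0.50, adjusted p = 0.0269), and Car4 was at 31.2 to 41.5 and 17.9 to 31.6 RPKM (-0.51, adjusted p = 0.0753), against 56.1 to 85.8 at d0. Of 14 venous genes, Bst1 (0.52, adjusted p = 0.0336) and Eln (0.71, adjusted p = 0.0239) rose and Ptgs1 fell (-0.54, adjusted p = 0.0436), while Vwf was at 61.5 to 125 and 55 to 83.5 RPKM (-0.42, adjusted p = 0.154). Plvap, the diaphragm protein of endothelial pores, was at 211, 196, 511 and 463 RPKM and then at 140, 149, 123 and 195, without overlap but under no call (-1.07 ± 0.33, adjusted p = 0.059).

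In the list of 19 vasoactive genes 3 rose and 3 fell, against 5.55% and 2.73% of all tested entries. The receptor for adrenomedullin is made of the products of Calcrl and Ramp2, and both genes rose. Ramp2 was at 2485, 2012, 2720 and 2446 RPKM at d15 and at 3616, 3083, 3712 and 5423 at d22 (0.69 ± 0.19, adjusted p = 0.0351), a call kept in 2 of 8 fits that left out 1 library. Calcrl was at 85.8 to 104 and 123 to 147 RPKM (0.45 ± 0.10, adjusted p = 0.0143), and the peptide's own gene Adm was at 1.36 to 2.27 and 0.545 to 1.00. Ace, which makes angiotensin II, fell from 462 to 532 RPKM to 303 to 404 (-0.51 ± 0.14, adjusted p = 0.0319). The rises numbered 1 without d15 replicate 3 or 6 or d22 replicate 5 or 6, and the falls 1 without d15 replicate 4 or d22 replicate 1 or 6. With the length and GC trend removed 1 rise and 0 falls were called, against 3 and 2 for the same genes uncorrected, and Calcrl and Ace were among the calls lost.

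Genes of fatty acid handling went in both directions. Cd36, which takes up long-chain fatty acids, was at 224, 178, 137 and 135 RPKM at d15 and at 232, 309, 296 and 291 at d22 (0.76 ± 0.16, adjusted p = 0.0109). Gpihbp1, which anchors lipoprotein lipase on capillaries, was at 360 to 509 and 224 to 311 RPKM (-0.71 ± 0.15, adjusted p = 0.0109). Pnpla2, the main triglyceride lipase gene, was at 7.49 to 10.4 and 4.59 to 5.52 RPKM (-0.68 ± 0.11, adjusted p = 0.00226). None of the 3 had overlapping groups. They were the only calls among 14 tested genes of the list, beside 8.28% of all tested entries called in either direction.

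The next largest falls lay outside these groups. Tspan4, a tetraspanin gene, was at 29.6, 43.7, 29 and 41.6 RPKM at d15 and at 13.5, 14.1, 11.3 and 10.6 at d22 (-1.45 ± 0.16, adjusted p = 0.000196). Spry1, an inhibitor of growth factor signalling to ERK, was at 8.94 to 15.3 and 4.06 to 5.44 RPKM (-1.19 ± 0.16, adjusted p = 0.000964). In both genes every d22 library was below every d15 library. Chi3l1 (-1.26, adjusted p = 0.00927), a secreted chitinase-like protein gene, Cbr2 (-1.35, adjusted p = 0.0184), a carbonyl reductase gene, and Grrp1 (-1.39, adjusted p = 0.0488) were the others. Cbr2 was at 94.0, 97.6, 52.1 and 37.9 RPKM at d15 and at 22.9, 23.4, 22.9 and 31.9 at d22. The summed lung epithelial genes, given below, were at 3514, 3416, 1503 and 1338 RPKM and then at 1229, 1164, 1205 and 1698. Chi3l1 was at 4.67, 11, 5.05 and 5.15 RPKM and then at 0.799, 2.59, 2.40 and 2.45. The part of epithelial transcripts in these falls was not tested. Grrp1 was at 5.82, 4.71, 22.1 and 16.2 RPKM at d15 and kept its call in 2 of 8 fits that left out 1 library. Timp1, a metalloproteinase inhibitor gene, was at 2.47 to 3.17 and 0.94 to 1.65 RPKM (-0.78 ± 0.11, adjusted p = 0.00169).

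Prrg1 and Mef2a were among the largest rises after Arntl. Prrg1, a vitamin K-dependent membrane protein gene, was at 1.37, 1.34, 1.39 and 1.09 RPKM at d15 and at 4.29, 6.23, 4.14 and 6.26 at d22 (1.42 ± 0.15, adjusted p = 0.000139). Mef2a, a transcription factor gene of muscle and vessels, was at 2.47, 2.11, 2.80 and 2.59 and then at 6.41, 6.73, 6.20 and 6.92 (1.12 ± 0.10, adjusted p = 7.88e-05). For both, the d22 libraries were also above all d0 libraries, which reached 1.41 RPKM for Prrg1 and 2.39 for Mef2a.

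Ssr3, of the complex that carries new proteins into the endoplasmic reticulum, was at 15.1, 12.3, 12.9 and 13 RPKM and then at 26.3, 27.3, 27.1 and 26.3 (0.96 ± 0.10, adjusted p = 0.000139). Tusc3, of the oligosaccharyl transferase (0.96, adjusted p = 0.00474), and the chaperone gene Hsp90b1 (0.50, adjusted p = 0.0146) rose too. Ssr4, of the same complex as Ssr3, went the other way, from 87.9 to 120 RPKM to 60.4 to 82.8 (-0.52 ± 0.12, adjusted p = 0.0214). Over the list of 29 translocation and folding genes, which does not hold Tusc3, 2 rose and 3 fell, beside 5.55% and 2.73% of all tested entries.

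Spon2, a secreted matrix protein gene, was at 0.0909 to 0.563 RPKM at d15 and 1.08 to 3.30 at d22 (1.34 ± 0.19, adjusted p = 0.00128), and d0 was at 1.15 to 1.94. Fam124b was at 5.38 to 10.7 and 14.5 to 19.8 RPKM (1.17 ± 0.16, adjusted p = 0.00114), against 13.8 to 16.8 at d0. For these genes the d15 level was the one apart from both other groups. Nox1 (1.27, adjusted p = 7.88e-05), an NADPH oxidase gene, overlaps Cstf2 and Arl13a on the other strand, so its reads may belong to them. Nipsnap3b (0.94, adjusted p = 0.00128), 8030494B02Rik (1.24, adjusted p = 0.00181) and B930042K01Rik (0.95, adjusted p = 0.00181) completed this group.

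Interferon-induced genes had 3 rises and 0 falls among 27 tested, beside 5.55% of all entries called higher, and 25 of 27 differences were positive with a median of 0.18. Gbp7, a guanylate-binding protein gene, was at 16.2, 16.6, 12.6 and 12.5 RPKM at d15 and at 29.7, 33.5, 35.4 and 26.2 at d22 (1.06 ± 0.19, adjusted p = 0.00482). Ifit2 was at 1.37 to 2.27 and 2.49 to 4.15 RPKM (0.62, adjusted p = 0.0222). Cmpk2 (0.54, adjusted p = 0.0477) passed in 0 of 8 fits that left out 1 library, and the count of rises was 1 without d22 replicate 1 or 5.

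Splicing and RNA-binding genes had 7 rises and 1 fall among 29 tested, against 5.55% and 2.73% of all tested entries, with a median of 0.27. Luc7l3, a U1-associated splicing factor gene, was at 7.77, 6.48, 5.38 and 6.57 RPKM at d15 and at 12.2, 12.5, 12.7 and 16.2 at d22 (0.93 ± 0.13, adjusted p = 0.00111). Its relative Luc7l2 (0.94, adjusted p = 0.004) and Sfrs18 (1.04, adjusted p = 0.00169), a serine- and arginine-rich splicing gene, were among the 15 largest rises. Clk4, a kinase of splicing factors, was at 24.4 to 34.0 and 39.9 to 45.5 RPKM (0.50, adjusted p = 0.0127). Cirbp, the cold-inducible RNA-binding protein gene, was the fall, from 96.0, 109, 102 and 108 RPKM to 51.1, 63.1, 56.2 and 58.8 (-0.85 ± 0.13, adjusted p = 0.00191). The count of rises was 3 without d15 replicate 4 or 6 or d22 replicate 1, 4 without d22 replicate 6, and 1 with the length and GC trend removed, against 6 for the same genes uncorrected.

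Ribosomal and nuclear respiratory chain genes mostly had negative differences, and the number called depended on single libraries. Of 38 cytosolic ribosomal protein genes 6 fell and 0 rose, beside 2.73% of all tested entries called lower, with 28 negative and 10 positive differences, 18 lower at an unadjusted p under 0.05 and a median of -0.28. Rps15 was at 154 to 202 and 118 to 145 RPKM (-0.47, adjusted p = 0.0183) and Rpl18 at 49.5 to 65.8 and 29.5 to 44.7 (-0.57, adjusted p = 0.0258). Of 29 nuclear genes of oxidative phosphorylation 3 fell and 0 rose, beside 2.73% of all tested entries called lower. The falls were Cox5b (-0.53), Cox4i1 (-0.44) and Ndufa2 (-0.44), at adjusted p = 0.0341 to 0.0488. In this list 27 differences were negative and 2 positive, with a median of -0.21, and 9 were lower at an unadjusted p under 0.05. The ribosomal count was 0 without d15 replicate 4 or 6 or d22 replicate 1 or 6, 2 without d22 replicate 5 and 12 without d15 replicate 5. The oxidative phosphorylation count was 0 without d15 replicate 3, 4 or 6 or d22 replicate 5 or 6, 1 without d22 replicate 1 and 7 without d15 replicate 5. ND4L, a mitochondrially encoded subunit of complex I, was at 257, 188, 131 and 191 RPKM at d15 and at 433, 506, 427 and 444 at d22 (1.27 ± 0.21, adjusted p = 0.00315), and ND5 at 102 to 153 and 181 to 201 (0.59 ± 0.18, adjusted p = 0.0527).

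The direction of change went with transcript length and GC content across genes. Genes called higher had a median length of 4662 bases and a median GC content of 42.9%, genes called lower 1984 bases and 53.8%, and all tested genes 3154 bases and 49.8%. With the genes in 10 equal bins by length, 5 were called higher and 76 lower in the shortest bin, and 97 and 8 in the longest. Across 9731 genes Spearman's rho of the difference was 0.331 with length and -0.35 with GC, as a description of genes that share libraries. The correlation of single libraries with length was -0.186 to 0.235 at d15 and 0.265 to 0.335 at d22, without overlap (exact permutation test, two-sided p = 0.0286, the smallest that 4 against 4 allow, and 0.0286 adjusted over 3 properties). The d0 libraries were at -0.329 to -0.2, below all libraries of d15 and d22. The differences from d0 given here were not corrected for this trend. Entries with an AK identifier in place of a gene symbol took 10.3 to 11% of all RPKM at d15 and 12.1 to 13.1% at d22. Of 2403 tested, 304 were called higher, which is 12.7%, beside 5.55% of all tested entries. Entries with an Ensembl identifier went the other way. Of 918 tested, 16 were called higher (1.74%) and 54 lower (5.88%, beside 2.73% of all tested entries).

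With the length and GC trend removed within each library, 148 genes were higher and 168 lower, against 329 and 237 of the same genes before. Among these genes ribosomal falls went from 4 to 1, and oxidative phosphorylation falls numbered 1 both before and after. Clock falls went from 6 to 5 and STAT3 and acute-phase falls from 5 to 4. Of 91 genes named in the text that were called among all entries and have a length, 78 were called in this smaller set before removal and 49 after it. Nr1d1, Nr1d2, Dbp, Arntl, Lrg1, Pim3, Il4ra, Tnfrsf1a, Slc3a2, Mef2a, Prrg1 and Ssr3 were among those that kept their calls. Per1, Per2, Socs3, Ch25h, Ddit4, Atf4, Trib3, Hif1a, Calcrl, Ace, Dll4, Clk4, Cbr2 and Sftpc were among the 42 called among all entries that were not called after removal. The part of RNA quality or library preparation in the length and GC trend was not tested.

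**Figure D4:**
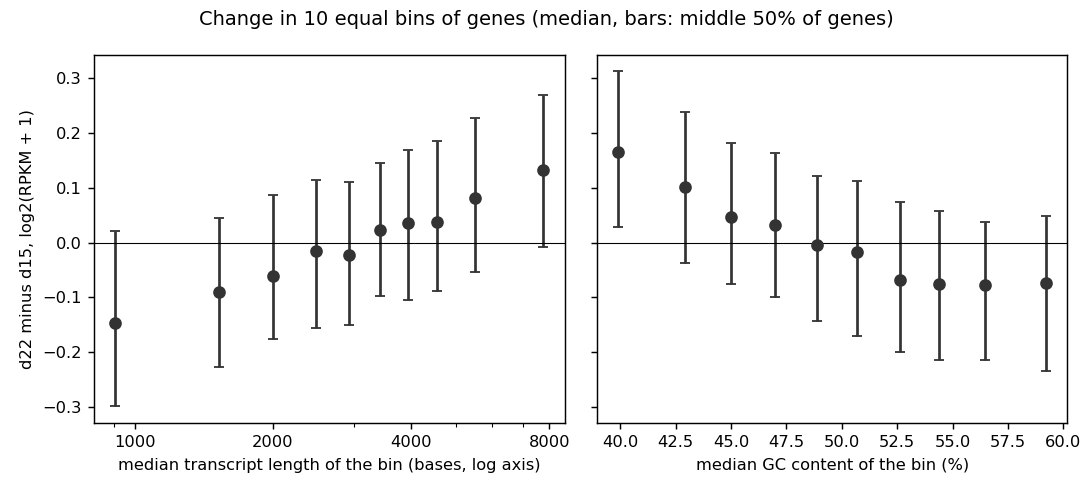
Median difference between d22 and d15 (log2(RPKM + 1); bars span the middle 50% of genes) in 10 equal bins of genes by transcript length (left, log axis) and GC content (right). The medians run from -0.147 in the shortest bin to 0.132 in the longest, and from 0.166 in the bin of lowest GC to -0.0734 in that of highest GC.

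Marker genes of other cell types moved in different directions. All 15 tested lung epithelial genes had negative differences, with a median of -0.47. Of them 2 were called, beside 2.73% of all tested entries called lower. Scgb3a1, a secretoglobin gene of airway cells, was at 20.8, 41.3, 20.7 and 19.5 RPKM at d15 and at 7.61, 6.06, 10.3 and 8.69 at d22 (-1.48 ± 0.21, adjusted p = 0.00169). Sftpc, the surfactant gene of alveolar type II cells, was at 619, 1827, 673 and 779 RPKM and then at 180, 517, 342 and 616 (-1.23 ± 0.35, adjusted p = 0.044), a call kept in 4 of 8 fits that left out 1 library. Over the 18 genes in the table the sum was 1338 to 3514 RPKM at d15 and 1164 to 1698 at d22, while Epcam and Foxj1 were under 0.5 RPKM in all 8 libraries.

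Hba-a1, an alpha-globin gene, was at 4.63, 3.72, 6.74 and 17.2 RPKM at d15 and at 1.76, 1.79, 0.932 and 5.75 at d22 (-1.30 ± 0.38, adjusted p = 0.0469), and it was the single call among 3 tested erythroid genes. Lyz2, a lysozyme gene of macrophages and type II cells, was at 44.9 to 131 and 15.8 to 58.1 RPKM (-1.06 ± 0.35, adjusted p = 0.068). None of 5 tested macrophage genes was called (3 lower at an unadjusted p under 0.05), and 9 of the 14 in the table, Csf1r and C1qa among them, were under 0.5 RPKM in all 8 libraries. Of 5 tested fibroblast and mural genes 4 had positive differences (median 0.22) with 0 called, 1 higher at an unadjusted p under 0.05, and the sum of the 11 in the table was 15 to 28.8 RPKM at d15 and 19.7 to 40.5 at d22. Dcn, Pdgfra and Fn1 were under 0.5 RPKM in all 8 libraries. Of 5 tested cardiomyocyte genes 4 had positive differences and 1 fell, and the single tested neutrophil gene had a difference of 0.35 without a call. The part of these transcripts in the changes of endothelial genes was not tested.

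Other groups held few or no calls in limma. Proteasome subunits had 0 of 27 (7 lower at an unadjusted p under 0.05), TGF-beta and BMP signalling 0 of 23 (6 higher, 2 lower), antigen presentation 0 of 15 (none in either direction) and coagulation 0 of 13 (1 higher, 2 lower). Of 16 matricellular and mesenchymal genes 2 rose and 1, Timp1, fell, beside 5.55% and 2.73% of all tested entries. Sparcl1, an anti-adhesive matrix gene, rose from 4.58 to 6.20 RPKM to 6.50 to 10.4 (0.66 ± 0.14, adjusted p = 0.0126). Robo4, a guidance receptor of endothelium, was the 1 fall among 20 pan-endothelial genes (-0.41, adjusted p = 0.0388) and kept its call in 1 of 8 fits that left out 1 library.

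**Figure D5:**
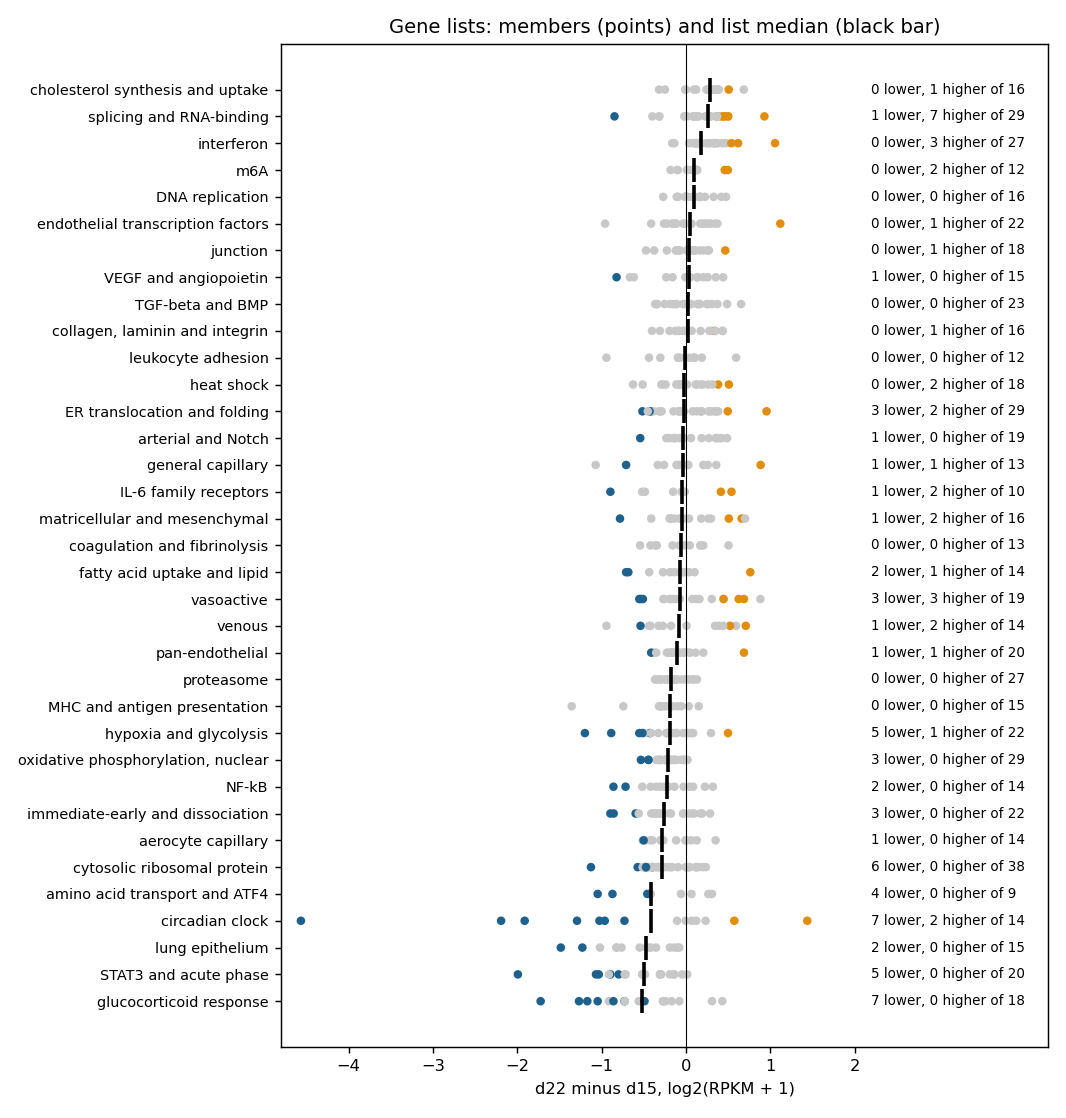
Difference between d22 and d15 (log2(RPKM + 1), horizontal axis) for the tested members of each gene list with at least 9 tested genes; orange points are called higher, blue points lower, grey points not called, and black bars are list medians. The clock, STAT3 and acute-phase, and glucocorticoid lists have medians of -0.42, -0.50 and -0.53, and the splicing list 0.27.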

How the data were processed

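RNA was measured by sequencing in FACS-sorted lung endothelial cells. Per the labels, a PicoPure kit was used for extraction, and the SMARTer Ultra Low kit turned 10 ng of RNA into each library. The table that the authors deposited gives RPKM per library for 17715 entries, per the file headers. The deposited table also holds the authors' log2 fold changes and adjusted p-values for d15, d22 and d36, with no comparison group named, and these were not used. The submitters' processing notes name STAR, DESeq2 and mm10, with neither version nor role. The annotation, the lengths behind RPKM and the use of strand are not given in the sources used here. Besides Nr1d1, Thra and Nox1, other named genes overlap a gene on the other strand, Dbp, Bhlhe40, Arntl, Stat3, Tspan4, Mef2a and Timp1 among them. Reads of the shared stretches carry the same doubt.

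Values were analysed as log2(RPKM + 1), which understates changes of low genes. An entry was tested where 4 or more of 12 libraries reached 1 RPKM, which left 13761. The main test was limma 3.58.1 (R 4.3.3) with an intensity trend, one fit over d0, d15 and d22 with no covariate, two-sided, with Benjamini-Hochberg adjustment over all tested entries and a threshold of 0.05. The d36 libraries were left out because they spread more and because the labels of 1 of them disagree on its day. The groups d15 and d22 are each shared by several comparisons with d0, so their values are only given side by side. The script was tested on simulated data. Depth was estimated from the step between low RPKM values of 69 genes with a single annotated transcript, and it is approximate. The RPKM values were not turned back into reads, and no count test was run. The series design calls the replicates independent, and no 2 libraries held identical values.

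The comparison, its members and the gene lists were chosen with earlier results of these data known. Named genes are, among called gene symbols whose d15 and d22 libraries did not overlap and whose mean reached 2 RPKM in one of them, the 15 largest rises and the 15 largest falls, with Lrg1 and up to 4 members of each list with the smallest p. Genes outside this rule are said to be named after their values were seen: besides those marked in the text, these are Clock, Cry1, Osmr, Stat3, Selp, Pecam1 and Cdh5. The values of 1 gene are not reported here. Symbols were matched to GENCODE vM21 (GRCm38, the assembly of mm10) for position, length and GC content, and 93.3% of tested gene symbols had a length. Promoters came from RefSeq. Alternatives changed the pseudocount, the filter, the scaling, the libraries in the fit, the prior, the library weights, the length and GC trend and the replicate block.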

Additional observations from a re-analysis of the deposited data

Results flagged for a closer look

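Within the groups of 4, 17 of 220 gene and group pairs had 1 library apart from the other 3 by Dixon's test on log2(RPKM + 1), which chance gives in about 1 of 20 groups. The d15 replicate 4 was high for Chi3l1 (11 RPKM against 4.67 to 5.15) and Scgb3a1 (41.3 against 19.5 to 20.8) and low for Eln (2.12 against 3.66 to 4.03). The d15 replicate 3 was low for Vcam1 (10.8 against 18.7 to 19.2) and high for Clock (2.15 against 1.28 to 1.40), Sfrs18 (9.09 against 6.32 to 6.64), Nipsnap3b (4.44 against 2.85 to 3.06) and Sparcl1 (6.20 against 4.58 to 4.68). Prrg1 was low in d15 replicate 6 (1.09 against 1.34 to 1.39).

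At d22, replicate 5 was low for Pim3 (6.01 against 8.66 to 8.79) and Tusc3 (6.19 against 8.21 to 8.47). Replicate 4 was high for Clca1 (5.62 against 3.45 to 3.70) and Ptgs1 (85.5 against 66.1 to 68.6), and replicate 1 was low for Chi3l1 (0.799 against 2.40 to 2.59). Replicate 6 was high for Cbr2 (31.9 against 22.9 to 23.4) and Luc7l3 (16.2 against 12.2 to 12.7) and low for Robo4 (86.6 against 99.0 to 102). No explanation of these values was tested.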

How the results depend on the processing

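All 30 genes with the largest changes kept their direction in every alternative fit that tested them. They were picked as called genes without overlap between d15 and d22, so leaving out 1 library could not reverse them. Their passes are therefore no independent support. Of them 27 passed in all 8 fits that left out 1 library and 26 in all other fits that tested them. Counts of entries higher and lower moved. With at least 5 RPKM in 4 libraries 245 were higher (281 lower), with all 16 libraries 286 and 151, and with libraries centred on the median 458 and 572. Genes with a reference length gave 329 and 237 uncorrected, and 148 and 168 with the length and GC trend removed. Leaving out 1 library gave 274 to 790 higher and 161 to 513 lower. The lowest counts higher were 274 without d22 replicate 1, 315 without d22 replicate 6, 329 without d15 replicate 6 and 371 without d15 replicate 4. The counts lower were 161 without d22 replicate 6, 173 without d22 replicate 1, 183 without d15 replicate 4, 206 without d15 replicate 6 and 233 without d22 replicate 5. The deviations of same-numbered libraries of d15 and d22 from their group means correlated at r = -0.0809, -0.114 and 0.0859 for numbers 4, 5 and 6. Differently numbered libraries gave r from -0.351 to 0.364. So few and so widely spread values cannot decide whether the numbers pair the samples. With the replicate block 491 were higher and 272 lower, and 136 and 134 with the block and the length and GC trend removed together. Clock, which was not called, was at -0.00071 with the length and GC trend removed, and Cry1 at -0.032 with quantile normalization, both reversed from small positive differences. Quantile normalization also turned Cdh5 to 0.043 and Pecam1 to 0.0036, from small negative differences without a call, and Pecam1 was at -0.147 to 0.0032 when 1 library was left out (0.0032 without d22 replicate 6, -0.147 without d22 replicate 5). The cause of these moves was not tested. With 4 libraries per group and no count per gene, counting error could not be separated from spread between mice, and the pseudocount of 1 RPKM limits what is seen under that level.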

Other observations

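Among groups not described above, 2 of 18 heat shock genes rose, Hsph1 (1.17 to 1.85 RPKM at d15, 2.19 to 3.04 at d22) and Chordc1 (8.25 to 11.2 and 12 to 14.2), each called in 2 of 8 fits that left out 1 library. Of all tested entries 5.55% were called higher, a share that also stands beside the other rises below. The RefSeq promoters of Hsph1 and Chordc1 hold no GAANNTTC within 250 bases before the start on either strand. Of all promoters 6.69% do. These letters read the same on both strands and cover a single order of the arms of the heat shock element. The reverse order of the arms was not searched, so the search cannot decide whether these promoters hold the element. Of 12 genes of m6A, a methyl mark on messenger RNA, the reader gene Ythdf3 (2.91 to 3.85 and 4.65 to 5.70 RPKM; 0.46, adjusted p = 0.0161) and Hnrnpa2b1 (42.6 to 52.3 and 58.5 to 73.2; 0.50, adjusted p = 0.0148) rose. Itga1, the collagen receptor subunit gene, was at 23.3 to 26.5 and 29.9 to 33.1 RPKM (0.34, adjusted p = 0.0244), the 1 rise among 16 collagen, laminin and integrin genes. Ackr2, a scavenger receptor for chemokines, fell from 107 to 122 RPKM to 69.1 to 93.3 (-0.49, adjusted p = 0.0214).

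Cyp51, an enzyme gene of cholesterol synthesis, was at 0.594 to 0.929 and 1.15 to 2.11 RPKM (0.51, adjusted p = 0.0182), and 8 of 16 cholesterol genes were higher at an unadjusted p under 0.05 with 1 called. Kif20a, a mitotic kinesin gene, was at 0.748 to 0.935 and at 2.80, 1.44, 1.76 and 1.07 RPKM, and it entered the test only through these d22 libraries, as d0 and d15 were under 1 RPKM throughout. The summed level of 22 mitosis genes was 5.54 to 6.31 RPKM at d15 and 7.42 to 35.6 at d22, and 3 of them were tested. The median spread of a gene within a group (SD of log2 values) was 0.181 at d15, 0.157 at d22 and 0.156 at d0.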
